A study of Mus musculus with 6 samples.

Results

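The 10 genes described here are Notch pathway genes: the receptors Notch1, Notch2 and Notch3, the ligands Jag1 and Jag2, and the targets Hes1, Hey1, Hey2, Heyl and Nrarp. They were taken by symbol from a count table of 17213 genes, and all 10 were found. The series holds 6 RNA-seq libraries from mouse dental follicles at postnatal day 8, 3 labelled KO, Pth1r(-/-), and 3 labelled Het, Pth1r(+/-). Pth1r encodes the receptor of the peptide hormones PTH and PTHrP, and the series text describes its deletion as conditional and started by tamoxifen. Cells of both groups came from mandibular molars, were described as PTHrP+ and were sorted for the red reporter tdTomato. The labels date the tamoxifen pulse to day 3 in the series text and to day 8 in the sample descriptions, and they name no Cre driver. No label says whether the libraries came from separate animals, so p-values measure the spread between these libraries, which may be technical.

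Notch receptors are membrane proteins that are cut when a ligand of the Jagged or Delta family on a neighbouring cell binds them. The released intracellular part enters the nucleus, joins the DNA-binding protein RBPJ and switches on genes such as the Hes and Hey repressors and Nrarp, a feedback inhibitor. In the mouse tooth germ, Notch pathway genes are known in the dental epithelium and in mesenchyme, and in osteoblasts PTH signalling is known to raise Jag1.

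Totals ranged from 51804736 to 66147200 counts in the libraries labelled KO and from 34019925 to 63787622 in those labelled Het. Pth1r was at 961, 608 and 472 CPM (counts scaled to an equal library size) in KO replicates 0, 1 and 2, and at 371, 286 and 346 CPM in the Het replicates. The targeted gene thus went against the labels, and every direction given is that of the libraries labelled KO against those labelled Het. Whole-gene counts cannot tell reads of a deleted exon from the others. Follicle markers were abundant, with Pthlh, the gene of PTHrP, at 298 to 350 CPM in the libraries labelled KO and 260 to 344 CPM in those labelled Het. Markers of other cell types were abundant too. Over the 6 libraries the 9 follicle markers summed to 4579 to 7877 CPM and the 11 dental epithelium markers to 5370 to 11138 CPM. The 8 osteoblast and odontoblast markers summed to 4477 to 20626 CPM. Het replicate 2 stood apart on the first principal component, which held 38.6% of the variance. It was more than 2-fold above every other library for 2.51% of the 14632 genes tested, against 0.205% to 0.998% in each other library. Xist, transcribed from the inactive X chromosome of females, was at 0.230 CPM in KO replicate 1 and 0.145 CPM in Het replicate 0, and at 23.7 to 78.4 CPM elsewhere.

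The RBPJ core motif TGGGAA was searched on both strands of the RefSeq promoter windows of GRCm38.p6, which run from 250 bases before to 50 bases after a gene's start. Windows were found for 7 members, Notch1, Notch2, Notch3, Jag1, Jag2, Hey2 and Nrarp. TGGGAA was present in 1 of them, Hey2, and in 25.6% of all 32851 windows. The Hey2 window held it at 2 places, starting 207 and 3 bases before the start, and both belong to the longer motif CGTGGGAA, which 0.734% of all windows contain. Hey2 and Nrarp are shown because both are targets of the pathway and differ in these letters. The sequences run to base 10 after the start, and capitals mark TGGGAA or its reverse complement TTCCCA.
Hey2, chr10:30842774-30843033, minus strand: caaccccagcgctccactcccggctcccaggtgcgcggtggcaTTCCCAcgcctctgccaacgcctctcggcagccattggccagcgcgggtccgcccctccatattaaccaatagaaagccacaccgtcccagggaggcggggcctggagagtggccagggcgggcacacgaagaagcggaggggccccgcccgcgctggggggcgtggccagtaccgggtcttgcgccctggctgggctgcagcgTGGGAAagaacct
Nrarp, chr2:25180508-25180767, plus strand: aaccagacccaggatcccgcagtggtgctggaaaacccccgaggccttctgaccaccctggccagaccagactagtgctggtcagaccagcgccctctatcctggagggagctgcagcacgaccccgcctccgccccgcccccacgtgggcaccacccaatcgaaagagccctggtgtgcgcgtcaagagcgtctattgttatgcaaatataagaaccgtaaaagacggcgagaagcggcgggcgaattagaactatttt
A match is a description of the letters and says nothing about binding in these cells.

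Transcripts of the targets Hes1 and Hey1 were far more abundant per length than those of any receptor. In the authors' FPKM, fragments scaled to gene length and library size, Hes1 averaged 73.6 over the 6 libraries and Hey1 31.1. Jag2 followed at 10.1, Nrarp at 6.84, Jag1 at 6.19 and Heyl at 5.45 FPKM. The receptors were lower, with Notch1 at 2.40, Notch2 at 2.16 and Notch3 at 1.60 FPKM, and Hey2 was lowest at 0.918. Hes1 was above Hey1 in all 6 libraries and Heyl above Notch1 in all 6, while Jag2 was above Nrarp in 4, Nrarp above Jag1 in 3 and Jag1 above Heyl in 2. Notch1 was above Notch2 in 3 of 6 libraries, so those neighbours did not differ beyond their spread. Among genes tested, the mean FPKM of Hes1 stood at percentile 90.7, that of Hey1 at 78.2 and those of the receptors between 23.4 and 28.9.

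**Figure D1:**
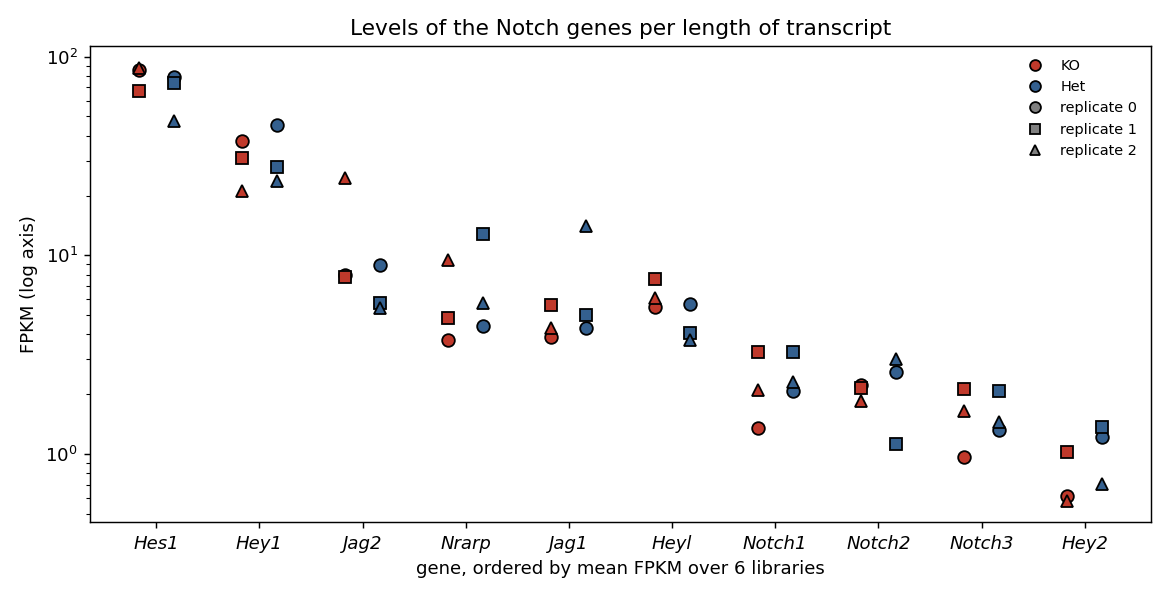
FPKM on a log axis for each of the 10 genes, ordered by the mean over 6 libraries, with KO libraries in red left of Het libraries in blue and a symbol per replicate number. Hes1 lies between 47.4 and 88.1 FPKM in every library, and the receptors lie between 0.964 and 3.27.

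Relative to CPM, the FPKM of the replicate 2 libraries differed from the rest for many genes. For Jag2 the FPKM per CPM was 0.394 in KO replicate 2 and 0.355 in Het replicate 2, against 0.255 to 0.267 in the other 4 libraries. Across 10576 genes with at least 1 FPKM in every library, both replicate 2 libraries lay on one side of the other 4 for 85.8%, and among the members for 7 (Notch1, Notch3, Jag1, Jag2, Hey1, Hey2 and Nrarp). Over all these genes the corresponding share was 29.7% for replicate 0 and 52.9% for replicate 1. Tests between groups were therefore made on counts, and FPKM served for levels and shares among genes.

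With edgeR's quasi-likelihood test, 0 of the 10 members passed an adjusted p of 0.05, and 0% of all genes tested were called higher and 0% lower. At an unadjusted p under 0.05, edgeR called 0 members in either direction, against 4.29% of all genes tested (2.58% higher and 1.71% lower). DESeq2 called 0 members at an adjusted p of 0.05, against 0.509% of all genes. At an unadjusted p under 0.05 DESeq2 called 1 member, Jag2 (unadjusted p = 0.0481), against 6.06% of all genes. All 10 passed the filter on low counts, with 86 to 6071 counts per library. Fitted values were higher for 3 members (Jag2, Hes1 and Heyl) and lower for 7, with 49% of all genes fitted higher. The median log2 fold change was -0.12 for the members and -0.01 for all genes tested. In each of the 10 the groups overlapped, and over all genes tested they did not overlap for 10.7% (5.84% with KO above Het and 4.83% with KO below).

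**Figure D2:**
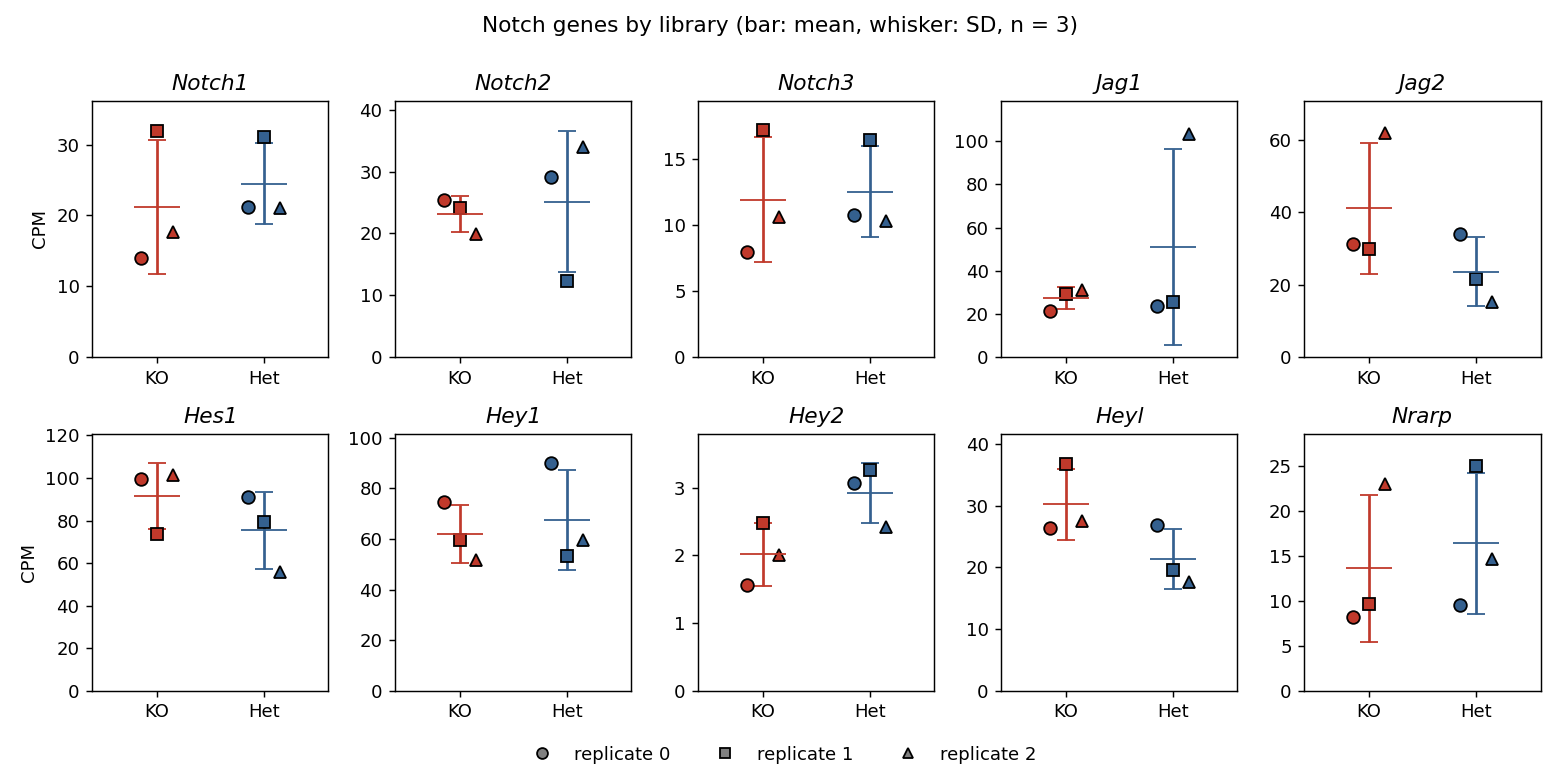
CPM of the 10 genes in each library, KO in red left of Het in blue, with a symbol per replicate number, a bar at the mean and whiskers of 1 SD (n = 3 each). The groups overlap in every panel, and the Jag1 mean of the Het group is raised by replicate 2 at 103 CPM.

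The 3 receptors were measured at nearly the same mean level in both groups. Notch1 (chromosome 2, 26457903 to 26516663 on the minus strand, mm10), a receptor often mutated in T cell leukaemia, was at 14.0, 31.9 and 17.6 CPM in KO replicates 0, 1 and 2, and at 21.2, 31.0 and 21.1 CPM in the Het replicates. The replicate 1 library was the highest in both groups. EdgeR fitted a log2 fold change of -0.21 (standard error 0.34, adjusted p = 0.981).

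Notch3 (chromosome 17, 32120820 to 32166852, minus strand), the receptor of vascular smooth muscle cells and pericytes, was at 8.01, 17.2 and 10.7 CPM in the KO replicates and 10.8, 16.5 and 10.3 CPM in the Het replicates. Replicate 1 was again the highest in both groups. The log2 fold change was -0.07, with a 95% interval of -0.92 to 0.78.

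Notch2 (chromosome 3, 98013527 to 98150361, plus strand), a receptor with known roles in bone remodelling, did not follow that pattern. It was at 25.4, 24.1 and 19.96 CPM in the KO replicates and at 29.1, 12.3 and 33.9 CPM in the Het replicates. The libraries labelled KO were close together, and those labelled Het held both the lowest and the highest value. Its log2 fold change was -0.12, with a 95% interval of -0.93 to 0.70.

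The summed FPKM of the 3 receptors was 5.90 ± 1.52 in the libraries labelled KO and 6.41 ± 0.376 in those labelled Het (SD, n = 3 each). Notch1 made up 36.8% ± 6.77 of that sum in the libraries labelled KO and 39.8% ± 9.25 in those labelled Het, and Notch2 36.9% ± 10.7 and 35.0% ± 15.3. Notch3 gave the remaining 26.2% ± 4.39 in KO and 25.2% ± 6.05 in Het. No receptor was dominant in either group.

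Among markers of the cells in which Notch3 is best known, Rgs5, a pericyte gene, was at 2.54, 18.6 and 2.57 CPM in the KO replicates and 6.48, 2.92 and 8.17 CPM in the Het replicates. It was thus highest in KO replicate 1, where Notch3 was also highest, but low in Het replicate 1. The 10 pericyte and smooth muscle markers summed to 848 to 1035 CPM in the libraries labelled KO and 1167 to 1237 CPM in those labelled Het. Acta2 was the largest part of each sum, with 487 to 569 CPM in KO and 708 to 814 CPM in Het. Of the 10 markers, 4 had a higher mean in KO. Among these 4, Pdgfrb averaged 147 CPM in KO and 92.2 CPM in Het, and Cspg4 60.3 and 33.5 CPM. None of the 10 was at 0 in every library. Of the 9 tested, edgeR called 0. DESeq2, which called 0.509% of all genes, called Tagln of this list at an adjusted p of 0.00886. Tagln was at 95.5, 83.1 and 83.9 CPM in the KO replicates and 146, 148 and 210 CPM in the Het replicates. The part of these markers in the receptor levels was not tested. In bulk RNA, fewer cells of a type and less RNA per cell cannot be told apart.

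The ligands had the widest spread of the 10 members, 4.78-fold for Jag1 and 4.04-fold for Jag2 between the highest and the lowest library. Jag1 (chromosome 2, 137081456 to 137116644, minus strand) was at 21.6, 29.5 and 31.2 CPM in the KO replicates and at 23.9, 25.8 and 103 CPM in the Het replicates. Het replicate 2 was 3.31-fold above the next highest library, and the other 5 lay between 21.6 and 31.2 CPM. EdgeR fitted a log2 fold change of -0.89 (standard error 0.53, adjusted p = 0.976), which became 0.15 without Het replicate 2.

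By the rule for genes of like pattern, the closest to Jag1 over the 6 libraries were Csnk2a1, Gtf2a1 and Tcf7l2. Their root mean square differences from Jag1 in centred log2 CPM were 0.11, 0.11 and 0.15. Csnk2a1, which encodes a catalytic subunit of the kinase CK2, was at 37.6 to 49.6 CPM in the libraries labelled KO, and at 40.1, 41.2 and 206 CPM in the Het replicates. All 3 shared the high value in Het replicate 2 that Jag1 had. Jag1 was the only member more than 2-fold above all other libraries in that library, against 2.51% of genes tested.

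Jag2 (chromosome 12, 112907819 to 112929776, minus strand), the Jagged ligand known from the inner dental epithelium of the mouse, was at 31.2, 30.0 and 62.1 CPM in the KO replicates. It was at 34.1, 21.5 and 15.4 CPM in the Het replicates. KO replicate 2 was the highest and Het replicate 2 the lowest, with Het replicate 0 above the other KO libraries. Means were 41.1 ± 18.2 CPM in KO and 23.7 ± 9.54 CPM in Het (SD, n = 3 each).

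The Jag2 log2 fold change of 0.80 had a standard error of 0.38 and a 95% interval of -0.06 to 1.65. The adjusted p was 0.976 in edgeR and 0.814 in DESeq2. Permuting the 6 libraries exactly gave a two-sided p of 0.3 for log2 CPM, where 0.1 is the smallest that 3 against 3 libraries allow. The fold change became 0.37 without KO replicate 2 and 0.14 without both replicate 2 libraries, an alternative chosen after seeing the data.

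The 11 markers of dental epithelium were also highest in KO replicate 2. Their sum was 9106, 5370 and 11138 CPM in the KO replicates and 8380, 8672 and 5657 CPM in the Het replicates. None was at 0 in every library, and 5 of 11 had a higher mean in KO. Epcam, an adhesion molecule of epithelial cells, was at 55.3, 75.1 and 147 CPM in the KO replicates and at 57.1, 122 and 118 CPM in the Het replicates, so it did not share the low value that Jag2 had in Het replicate 2. The part of epithelial RNA in the Jag2 values was not tested.

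Jag2 took 67.3%, 58.2% and 85.1% of the summed Jagged FPKM in the KO replicates, and 67.5%, 53.3% and 28.0% in the Het replicates. In 5 of 6 libraries Jag2 was thus the more abundant ligand per length, and Het replicate 2 was the exception. These shares carry the FPKM scaling of the replicate 2 libraries, where Jag2 had more FPKM per CPM than elsewhere and Jag1 less, 0.138 in KO replicate 2 and 0.136 in Het replicate 2 against 0.180 to 0.195 in the other 4. The ratio of Jag1 to Jag2 counts, which does not depend on that scaling, was 0.690, 0.984 and 0.503 in the KO replicates and 0.701, 1.20 and 6.72 in the Het replicates. The groups overlapped in this ratio too.

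The genes nearest to Jag2 in pattern were Gm1976, 1700096K18Rik and Slc7a11, the cystine transporter, with differences of 0.15, 0.17 and 0.19. Slc7a11 was at 9.83, 8.25 and 14.9 CPM in the KO replicates and at 11.7, 5.18 and 4.24 CPM in the Het replicates.

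**Figure D3:**
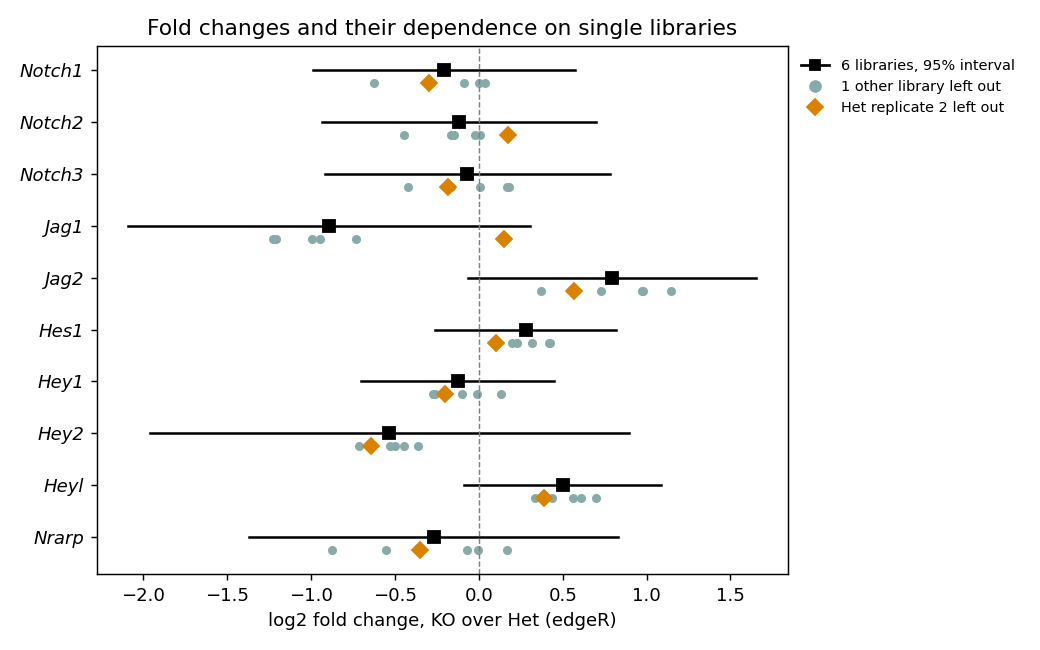
Log2 fold change of each gene, KO over Het, from edgeR on 6 libraries with its 95% interval (black), and the values with 1 library left out (grey) or with Het replicate 2 left out (orange). Every interval holds 0, and Jag1 crosses from -0.89 to 0.15 when Het replicate 2 is left out.

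Of the targets, Hes1 was the most abundant and Heyl the one with the smallest unadjusted p. Hes1 (chromosome 16, 30064384 to 30067796, plus strand), a basic helix-loop-helix repressor that is the classical Notch target, was at 99.7, 73.5 and 101 CPM in the KO replicates. In Het, replicates 0 to 2 were at 90.9, 79.5 and 55.7 CPM. Het replicate 2 was the lowest, and KO replicate 1 lay below both other Het libraries. Hes1 had a log2 fold change of 0.28, with a 95% interval of -0.26 to 0.82, which became 0.02 without both replicate 2 libraries.

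Hey1 (chromosome 3, 8663359 to 8667256, minus strand), a related repressor also induced by BMP signalling, was at 74.6, 59.5 and 51.8 CPM in the KO replicates and 90.2, 53.2 and 59.5 CPM in the Het replicates. Replicate 0 was the highest in each group. The log2 fold change of -0.13 had a 95% interval of -0.70 to 0.45.

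Heyl (chromosome 4, 123233556 to 123249875, plus strand), the Hey family member often used with Notch3 to mark mural cells, was at 26.4, 36.9 and 27.5 CPM in the KO replicates. In the Het replicates it was at 26.9, 19.5 and 17.7 CPM. The groups overlapped by 1 library each, KO replicate 0 lying just under Het replicate 0. EdgeR fitted a log2 fold change of 0.50 (standard error 0.26), with an unadjusted p of 0.0858 and an adjusted p of 0.976. The value stayed positive, between 0.32 and 0.70, in all 17 alternatives, which reuse these libraries. Jag2 and Hes1 also stayed positive in all 17, and Hey2 stayed negative in all 17.

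Hey2 (chromosome 10, 30832359 to 30842801, minus strand), known for its part in heart and artery development, was at 1.56, 2.48 and 1.998 CPM in the KO replicates. The Het replicates had 3.07, 3.26 and 2.42 CPM. The groups overlapped only through KO replicate 1 and Het replicate 2. With 86 to 191 counts per library this was the least precise member, with a log2 fold change of -0.53, a standard error of 0.63 and a 95% interval of -1.96 to 0.89.

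The 10 endothelial markers, of a cell type in which Hey1 and Hey2 are also known, summed to 14.8 to 24.4 CPM in the libraries labelled KO and 24.9 to 49.6 CPM in those labelled Het. None was at 0 in every library, and 3 of 10 had a higher mean in KO. Pecam1, the endothelial adhesion molecule, was at 0.443, 1.63 and 1.14 CPM in the KO replicates and 1.69, 3.23 and 6.71 CPM in the Het replicates. Like Hey2, the summed list was lower in KO. Within Het, however, the sum was highest in replicate 2, at 49.6 CPM, where Hey2 had its lowest Het value, 2.42 CPM. The part of endothelial RNA in the Hey2 values was not tested.

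Nrarp (chromosome 2, 25180758 to 25183339, plus strand), the ankyrin repeat protein that restrains Notch signalling, was at 8.19, 9.64 and 23.0 CPM in the KO replicates. The Het replicates had 9.54, 24.98 and 14.7 CPM. KO replicate 2 and Het replicate 1 were the high ones, and 2 KO libraries and 1 Het library lay below 10 CPM. The log2 fold change of -0.27 had a 95% interval of -1.37 to 0.83, and ranged from -0.95 to 0.17 over the alternatives. Hvcn1, Zfp40 and Mpped1 were closest to Nrarp in pattern, with root mean square differences of 0.16, 0.19 and 0.22. Hvcn1, which encodes a proton channel, was at 9.09, 11.4 and 26.2 CPM in the KO replicates and at 9.23, 23.97 and 12.6 CPM in the Het replicates.

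Within the sum of Hes1, Hey1, Hey2 and Heyl in FPKM, Hes1 took 68.4% ± 6.76 in the libraries labelled KO and 63.9% ± 4.46 in those labelled Het (SD, n = 3 each). Hey1 took 25.4% ± 6.17 in KO and 30.7% ± 4.28 in Het. Heyl took 5.54% ± 1.46 and Hey2 0.646% ± 0.272 in KO, against 4.36% ± 0.579 and 1.04% ± 0.195 in Het. The order of mean shares, Hes1, Hey1, Heyl and Hey2, was the same in both groups.

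Of the markers tested in the osteoblast, macrophage, Schwann cell and follicle lists, edgeR called 0 in either direction, with 0% of all genes called. DESeq2, which called 0.509% of all genes, called Dmp1 of the osteoblast list at an adjusted p of 0.00146. Dmp1 was at 536, 248 and 138 CPM in the KO replicates and 72.4, 29.0 and 84.8 CPM in the Het replicates. Its adjusted p in edgeR was 0.634. The 8 osteoblast and odontoblast markers summed to 12025 to 20626 CPM in the libraries labelled KO and 4477 to 11690 CPM in those labelled Het, with 7 of 8 means higher in KO. Ibsp, a bone matrix protein gene, made up most of that sum, with 9714 to 16424 CPM in KO and 3112 to 10458.5 CPM in Het. The 9 macrophage and leukocyte markers summed to 26.2 to 140 CPM in KO and 19.2 to 85.4 CPM in Het, with 9 of 9 means higher in KO. The 4 Schwann cell markers summed to 11.6 to 21.5 CPM in KO and 6.16 to 18.6 CPM in Het, with 2 of 4 means higher in KO. Sox10 had 0 counts in all KO libraries and 2 in 1 Het library. The 9 follicle markers summed to 4579 to 6044 CPM in KO and 5772 to 7877 CPM in Het, with 3 of 9 means higher in KO. Lum was the largest part of each follicle sum, with 2432 to 3360 CPM in KO and 2751 to 4800 CPM in Het. In none of these lists was a marker at 0 in every library, and their part in the Notch genes was not tested.

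The wider pathway was described through 51 further genes in 6 lists, of which 49 were in the count table and 48 were tested. With edgeR 0 of 48 passed in either direction, 28 were fitted higher and 20 lower, with 49% of all genes fitted higher, and the median log2 fold change was 0.08. In DESeq2 1 of the 48 passed, Dtx4, against 0.509% of all genes. The groups did not overlap for 4 of the 48, against 10.7% of all genes tested. Of these, 2 had KO above Het (Dtx4 and Lfng) and 2 had KO below (Psen2 and Maml1).

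Dtx4, one of the Deltex ubiquitin ligases that act on Notch receptors, was at 146, 190 and 102 CPM in the KO replicates. The Het replicates had 70.4, 71.4 and 64.5 CPM. All KO libraries lay above all Het libraries, as for 5.84% of genes tested. For Dtx4 the fitted log2 fold change was 1.09 (standard error 0.24), and the adjusted p was 0.634 in edgeR. DESeq2 gave it an adjusted p of 0.0138, and over 17 alternatives the adjusted p ranged up to 0.999909 and the fold change from 0.86 to 1.29. Fbxw7, which marks the Notch intracellular part for destruction, was at 34.9 ± 5.46 CPM in KO and 27.8 ± 6.24 CPM in Het. Of the 12 ubiquitin and endocytosis regulators, 10 were fitted higher and 2 lower, and the median was 0.16.

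Lfng, a Fringe glycosyltransferase that modifies which ligands a receptor answers to, was at 30.7, 41.0 and 35.0 CPM in the KO replicates and 24.4, 23.9 and 25.2 CPM in the Het replicates. The groups did not overlap, with a log2 fold change of 0.54, a standard error of 0.21 and an adjusted p of 0.976 in edgeR. Poglut1, which adds O-glucose to Notch, was at 74.8 ± 4.61 CPM in KO and 88.6 ± 11.7 CPM in Het. Of the 5 glycosyltransferases, 2 were fitted higher and 3 lower, and the median was -0.01.

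The proteases that process the receptors were fitted higher in 6 and lower in 4 of 10 cases, with 0.11 as their median log2 fold change. Furin, which cuts the receptor on its way to the surface, was at 193 ± 36.9 CPM in KO and 119 ± 58.6 CPM in Het. Psen2, a catalytic subunit of gamma-secretase, was at 24.3, 19.3 and 24.7 CPM in the KO replicates and 26.1, 30.0 and 34.3 CPM in the Het replicates. All KO libraries lay below all Het libraries, as for 4.83% of genes tested. The edgeR adjusted p of Psen2 was 0.976.

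In the nuclear complex, 4 of 9 genes were fitted higher and 5 lower, and the median was -0.11. Maml1, a coactivator that binds the Notch and RBPJ complex, was at 12.9, 8.87 and 11.3 CPM in the KO replicates and 15.3, 14.5 and 30.6 CPM in the Het replicates, with Het replicate 2 the highest. All KO libraries lay below all Het libraries, as for 4.83% of genes tested. The log2 fold change of -0.87 (edgeR adjusted p = 0.976) became -0.45 without both replicate 2 libraries.

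Of 7 other receptors and ligands, 3 were fitted higher and 4 lower, and their median log2 fold change was -0.63. Dlk1, an imprinted Delta-like protein, was at 40.0, 42.2 and 32.5 CPM in the KO replicates and 88.2, 49.5 and 39.7 CPM in the Het replicates. Dll3 had 8, 0 and 10 counts in the KO replicates and 12, 5 and 66 in the Het replicates, so most of its counts were in Het replicate 2. Dll4, an arterial ligand, had 2, 11 and 46 counts in the KO replicates and 0, 39 and 0 in the Het replicates. Of 5 tested Hes genes and reported targets, 3 were fitted higher and 2 lower, and the median was 0.16. Ccnd1, a cyclin, was at 200 ± 42.3 CPM in KO and 152 ± 37.7 CPM in Het, and the growth regulator Myc at 205 ± 34.9 CPM in KO and 161 ± 49.97 CPM in Het.

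**Figure D4:**
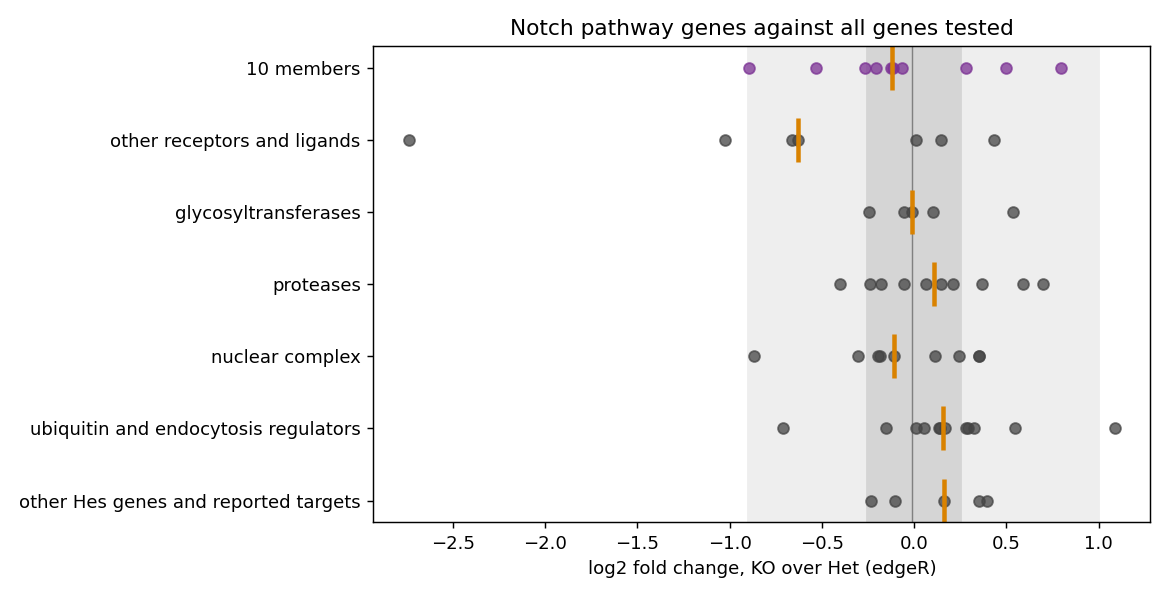
Log2 fold change, KO over Het, of the 10 members (purple) and of 48 other pathway genes by list (grey), with the median of each row in orange. Dark and light bands hold the central 50% and 90% of all genes tested, and Dtx4 at 1.09 is the highest point of the pathway lists.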

How the data were processed

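The authors deposited whole-number counts per gene symbol, a second table of estimated counts and a table of FPKM values. Per the submitters' processing notes, the build was mm10 and the tools were HTSeq, DESeq2, Cuffdiff, Cufflinks, Bowtie2 2.2.1, TopHat2 2.0.13 and FastQC, with no role given for each. Neither annotation nor strand setting is stated (not given in the sources used here), so reads of genes that overlap Notch1, Notch2, Notch3, Jag2 and Nrarp in GENCODE M21 may be included. Per the labels' protocols, cDNA was made from sorted cells with a low-input amplification kit; molecular identifiers are not mentioned, so precision from depth covers counting error only.

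Counts were fitted in R 4.3.3 with edgeR 4.0.16 (quasi-likelihood, TMM, default filter, 14632 genes), with limma 3.58.1 and DESeq2 1.42.0 as alternatives. P-values are two-sided and adjusted by Benjamini-Hochberg over all genes tested. Standard errors and 95% intervals come from the F statistic, CPM uses TMM library sizes, and log2 CPM has a prior count of 2. Estimated counts were rounded and used as an alternative. Scaled, depth-normalized and rlog tables were not used here. The script was tested on simulated data. All pairs of libraries differed by more than sampling noise.

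The members and lists were chosen with earlier results of these data known. Named are all members, the 2 genes with the smallest p of each pathway list, the first marker of a list, and the 3 genes of like pattern (mean log2 CPM of at least 2) for the 3 members of largest SD. Dll4, Dmp1 and Tagln were added after their values were seen. One gene that this rule names is not reported here.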

Additional observations from a re-analysis of the deposited data

How the results depend on the processing

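Across 17 alternatives, 156 of 170 member values kept their sign, and 0 members passed in any of them. The other 14 changed sign. Notch2 was at 0.14 in limma-voom, 0.0046 on log2(FPKM + 0.1), 0.0063 without Het replicate 0, 0.17 without Het replicate 2 and 0.26 without both replicate 2 libraries. Jag1 was at 0.15 without Het replicate 2 and 0.044 without both replicate 2 libraries, an alternative chosen after seeing the data. Notch1 was at 0.038 without KO replicate 0. Leaving out 1 library, Notch1 ranged from -0.63 to 0.04, Notch2 from -0.44 to 0.17, Notch3 from -0.42 to 0.18, Jag1 from -1.23 to 0.15, Hey1 from -0.27 to 0.13 and Nrarp from -0.88 to 0.17.

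Over all genes edgeR called 0, DESeq2 87 and limma-voom 1, and limma-trend called 1 under each FPKM setting (pseudocounts of 1 and 0.1, and no filter). Leaving out 1 library gave 0 to 1, the call being made without Het replicate 0. The cause was not tested. At an unadjusted p under 0.05 edgeR had 628 genes and DESeq2 1036.

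For each gene, the deviation of log2 CPM from the group mean was taken in every library. Between same-numbered KO and Het libraries these deviations correlated across genes at 0.169, 0.0746 and 0.0694. Between libraries of different number the values ran from -0.122 to 0.0320. No label says what libraries of the same number share, so the numbers were not taken as pairs. The deviations of each library nevertheless correlated best with those of its own number in the other group. With the replicate number as a block edgeR called 0 genes and 0 members, with 908 genes at an unadjusted p under 0.05, and the Jag1 log2 fold change was -0.55.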

Other observations

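The count ratio of Notch1 to Notch3 varied least of the 45 ratios between members, a pair singled out after its values were seen. It was 1.75, 1.85 and 1.65 in KO replicates 0, 1 and 2, and 1.96, 1.88 and 2.05 in the Het replicates. The highest was 1.24-fold above the lowest, while Notch1 itself spanned 2.28-fold and Notch3 2.15-fold over the same libraries. The groups did not overlap for 6 of the 45 ratios, or 13.3%, near the 10.7% of all genes tested whose CPM did not overlap, and the ratios share genes.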
